A study of Mus musculus with 25 samples.

Results

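Hdc encodes histidine decarboxylase, the enzyme that makes histamine from the amino acid histidine. It was followed in mouse lung over the first 96 h of calorie restriction (CR). On the Affymetrix MG-U74Av2 array, 1 probe set of 12422 (array controls left out) had Hdc as its only annotated gene symbol, and 8251 genes had at least 1 such probe set. That probe set, 93328_at, gave every Hdc value reported here. The gene was chosen with its pattern over these arrays known, so its levels and differences are given as a description, with no test.

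The 24 arrays carried total lung RNA of C57BL/6 mice, an inbred laboratory strain with no allele or transgene named in the labels. CR mice had their food cut by 2/3 and were killed 2, 4, 12, 24, 48, 72 or 96 h after the cut (2 arrays each, a and b), and fed mice were killed at 0 h (4 arrays, numbered 1a, 1b, 2a and 2b) and at 2, 4 and 12 h (2 arrays each). The labels describe the fed mice as always fed, yet also carry the wording of the cut, which leaves their diet uncertain; they were taken as unrestricted. Sex, age and the clock time of death are not given in the sources used here, and nor is whether a and b were separate mice or repeat arrays of 1 RNA, so the spread between them may be technical only. Values are linear signals scaled to a common array median (80.4 was the floor used for tests). Whole lung holds many cell types, so fewer cells of a type and less Hdc RNA per cell cannot be told apart. Lung markers were bright on every array, with Sftpc, made by the surfactant-secreting cells of the alveolus, from 22257 to 97698, and Ager, a gene of the flat alveolar cells, from 21828 to 38230.

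Histidine decarboxylase carries pyridoxal phosphate, the active form of vitamin B6, and is the dedicated histamine-forming enzyme of mammals. Mast cells and basophils store histamine in granules and release it in allergic reactions, while neutrophils, macrophages and other cells can make it on demand. In the lung, histamine contracts airway smooth muscle and makes small vessels leaky. Diamine oxidase (Aoc1) and histamine N-methyltransferase (Hnmt) inactivate it.

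The start region of Hdc is shown because clock genes and glucocorticoid-induced genes, whose regulators bind known DNA words, were followed beside it. The RefSeq window (build GRCm38.p6) is chr2:126618629-126618928, minus strand, printed 5′ to 3′ from 250 bases before to 50 bases after the annotated start. Capitals mark the 2 words TGTTCT, a hexamer that the glucocorticoid receptor contacts, and GGGCGG, a GC box.
Hdc: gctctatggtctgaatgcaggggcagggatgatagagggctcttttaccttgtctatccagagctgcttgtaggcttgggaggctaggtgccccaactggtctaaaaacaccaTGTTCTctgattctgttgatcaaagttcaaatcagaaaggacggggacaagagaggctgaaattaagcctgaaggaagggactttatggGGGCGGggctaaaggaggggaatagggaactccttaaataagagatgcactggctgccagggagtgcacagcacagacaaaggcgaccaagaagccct
TGTTCT begins 137 bases before the start and was found in 18.98% of all 32841 mouse windows of this length, and GGGCGG begins 48 bases before it and was found in 35.67% (both strands searched, no overlap between matches). GATA, the core of the sites of Gata2, occurred at 220 and 196 bases before the start, and in 57.91% of windows. The window held no CACGTG (E-box, 7.153% of windows), TTATGTAA (D-box, 0.9379%), TGACG (core of the cAMP response element, 20.82%), TATAAA (13.62%) or AGGTCA (nuclear receptor hexamer, 16.26%). A match describes these letters only.

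Under CR, Hdc signal was lowest at 12 h. Arrays a and b gave 1546 and 1825 at 2 h, 1992 and 2140 at 4 h, and 1009 and 1098 at 12 h. They gave 2130 and 2033 at 24 h, 2312 and 2263 at 48 h, 2210 and 1974 at 72 h, and 1982 and 1945 at 96 h. Both 12 h arrays thus lay below the other 12 CR arrays, and from 24 h on the 8 arrays kept within 1945 to 2312. In fed lungs Hdc was 3019 (1a), 2654 (1b), 3133 (2a) and 2948 (2b) at 0 h, 2387 and 1972 at 2 h, 2034 and 1885 at 4 h, and 952 and 1244 at 12 h. The 4 fed 0 h arrays were above the other 20 arrays, a pattern found for 0.242% of the 7440 probe sets that passed the filter on dim signal. The 4 arrays at 12 h, of both diets, were below the other 20.

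**Figure D1:**
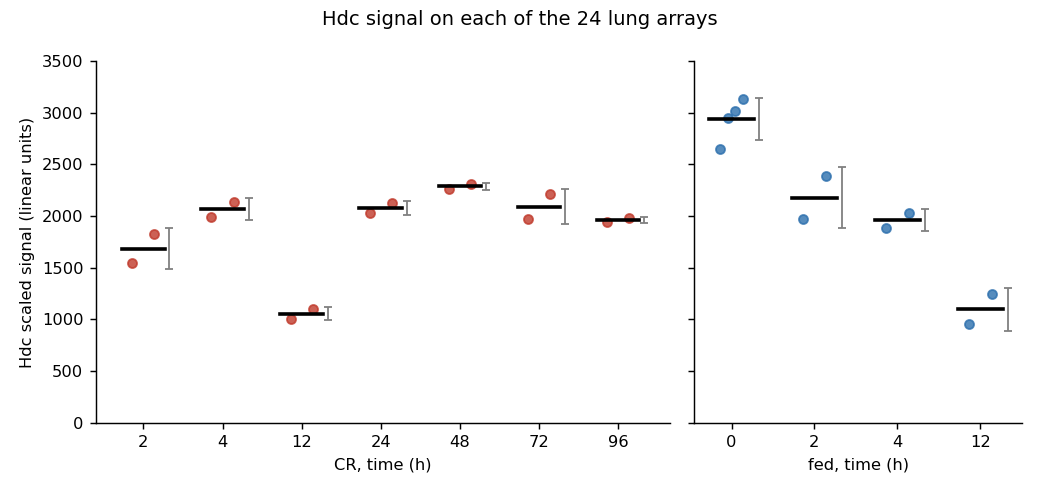
Hdc scaled signal (linear units) on each of 24 lung arrays against the labelled time in hours, CR on the left and fed on the right; points are arrays, black lines group means and grey bars ± 1 SD. The 12 h arrays of both diets sit between 952 and 1244, and the 4 fed 0 h arrays between 2654 and 3133.

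As group means ± SD, Hdc stood at 1686 ± 197 at CR 2 h, 2066 ± 105 at CR 4 h, 1053 ± 62.6 at CR 12 h, 2081 ± 68.7 at CR 24 h, 2287 ± 34.2 at CR 48 h, 2092 ± 167 at CR 72 h and 1963 ± 25.5 at CR 96 h (n = 2 each). In fed lungs it stood at 2938 ± 205 at 0 h (n = 4), 2180 ± 293 at 2 h, 1959 ± 106 at 4 h and 1098 ± 207 at 12 h (n = 2 each). The order, high to low, was fed 0 h, CR 48 h, fed 2 h, CR 72 h, CR 24 h, CR 4 h, CR 96 h, fed 4 h, CR 2 h, fed 12 h and CR 12 h. The pooled SD of Hdc within groups was 0.13 on the log2 scale, and 3 steps of that order exceeded it. Fed 0 h was 0.36 log2 units above CR 48 h, fed 4 h was 0.22 above CR 2 h, and CR 2 h was 0.63 above fed 12 h. The 7 groups from CR 48 h down to fed 4 h followed each other by less than the pooled SD, as did fed 12 h and CR 12 h. The levels thus formed a top group of fed 0 h, a broad middle, CR 2 h a step below it, and a bottom of both 12 h groups.

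The first question is how Hdc followed the labelled hour within a diet. In fed lungs Hdc at 12 h (952 and 1244) was 2.70-fold below fed 0 h (2654 to 3133), a log2 difference of -1.43. The earlier fed groups lay between, with log2 differences from fed 0 h of -0.43 at 2 h and -0.58 at 4 h. The step from fed 4 h to fed 12 h was the larger one, a further -0.85. No fed 12 h array overlapped a fed 0 h array; of the 7440 probe sets, 10.6% had both fed 12 h arrays below all 4 fed 0 h arrays. By size, the Hdc difference was the 31st most negative of the 7440.

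Restricted lungs had the same low point. Hdc at CR 12 h (1009 and 1098) was 1.98-fold below CR 24 h (2130 and 2033), a log2 difference of -0.98, and 1.96-fold below CR 4 h (1992 and 2140). The CR 12 h and CR 24 h arrays did not overlap, which held for 26.7% of probe sets in that direction, and the difference ranked as the 143rd most negative. The drop to 12 h had a smaller value under CR than in fed lungs: set against the group 12 h away (CR 24 h in one diet, fed 0 h in the other), the differences of -0.98 and -1.43 were 0.45 log2 units apart, a gap that was not tested. The 12 h levels of both diets lay side by side, while CR 24 h (2130 and 2033) lay below fed 0 h (2654 to 3133). Across all 24 arrays, 31 probe sets (0.417%) had all 4 of their 12 h arrays below the other 20; only for Hdc (0.0134%) were the fed 0 h arrays also above all others, a pattern that was defined from Hdc.

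The second question is how Hdc differed between the diets at the same labelled hour. At 12 h the values were 1009 and 1098 in CR lungs and 952 and 1244 in fed lungs, so the fed arrays enclosed the CR arrays and the log2 difference was -0.05. Without the lower or the higher fed 12 h array, that difference was -0.24 or 0.15, so its sign rests on 1 array. At 4 h Hdc was 1992 and 2140 in CR lungs and 2034 and 1885 in fed lungs, a log2 difference of 0.08 with overlapping values. Both differences were smaller than the pooled SD.

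At 2 h the diets stood apart. Hdc was 1546 and 1825 in CR lungs and 2387 and 1972 in fed lungs, 1.29-fold lower under CR (log2 difference -0.37) with no overlap; 19.6% of probe sets had both CR 2 h arrays below both fed 2 h arrays. The CR 2 h arrays were among those with a high top signal and the fed 2 h arrays among those with a low one, so diet and signal range cannot be told apart at 2 h. Summed signals of other cell types also stood apart at that hour, some in the direction of Hdc and some against it. Lower in CR than in fed lungs, like Hdc, were those of mast cell markers (12 genes), at 4231 and 5048 against 5073 and 5727, and of platelet markers (4 genes), at 2681 and 2955 against 4013 and 4643. Most of the platelet sum was Vwf, with a median over the 24 arrays of 4300. The medians were 463 for Gp9, 161 for Gp1bb and 78.7 for Pf4. Without Kit and Gata2, which other lung cells also express, the mast cell sums overlapped, at 924 and 1017 against 820 and 961. Higher in CR than in fed lungs were those of basophil markers (3 genes), at 723 and 758 against 239 and 384, of neutrophil markers (17 genes), at 10986 and 12418 against 8520 and 9283, and of lung epithelium (5 genes), at 194817 and 201673 against 116730 and 117183. Of the 3 basophil genes only Il3ra, with a median of 335 over the 24 arrays, passed the filter. Il4 was at or under the floor on 16 or more of 24 arrays by each probe set. In the epithelium sum Sftpc reached 97698 and Scgb1a1 75170, bright enough to set an array's top signal. That sum and the signal range are thus not separate readings. The part of these cell types in the Hdc difference was not tested. Averaged over 2, 4 and 12 h, the difference of CR from fed was -0.11, from -0.37 at 2 h, 0.08 at 4 h and -0.05 at 12 h. An average of 3 differences varies less than 1 of them, so the pooled SD is no yardstick for it.

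**Figure D2:**
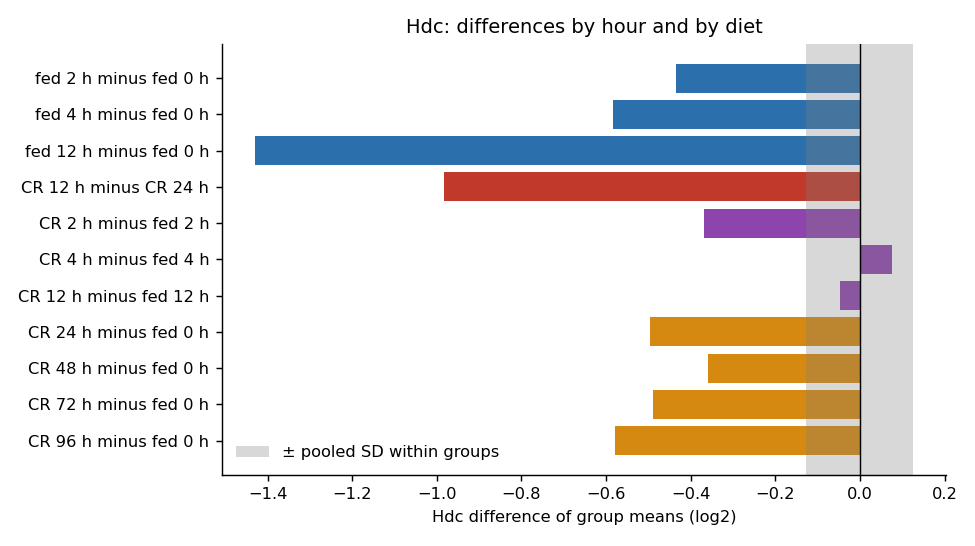
Differences of Hdc group means on the log2 scale (horizontal axis) for steps by hour within fed lungs (blue) and CR lungs (red), between diets at 1 hour (purple) and between CR at 24 to 96 h and fed 0 h (orange); the grey band is ± the pooled SD within groups, 0.13. The 12 h steps of -1.43 and -0.98 are the longest bars, and the diet differences at 4 and 12 h lie inside the band.

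The third question is how Hdc after longer restriction stood against fed 0 h. The labelled hours 24, 48, 72 and 96 are whole days from 0 h, so they would share its time of day. Hdc ran from 1945 to 2312 on the 8 CR arrays of 24 to 96 h (median 2081) and from 2654 to 3133 on the 4 fed 0 h arrays (median 2984), so the sets did not overlap; 2.22% of probe sets had all 8 CR arrays below all 4 fed 0 h arrays. The mean log2 difference was -0.48, 1.40-fold lower under CR. By time it was -0.50 (24 h), -0.36 (48 h), -0.49 (72 h) and -0.58 (96 h), with no steady course. By size it was the 921st most negative of the 7440.

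The late CR level of Hdc was close to that of fed lungs at 2 and 4 h. The mean of CR 24 to 96 h differed from the mean of fed 2 and 4 h by 0.03 log2 units, with arrays from 1945 to 2312 in late CR lungs and from 1885 to 2387 in fed 2 and 4 h lungs. Hdc in late CR lungs thus lay below fed 0 h, level with fed 2 and 4 h, and above fed 12 h (952 and 1244). No fed lungs labelled 24 h or later were among the arrays analysed here.

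Measures of RNA quality differed between the arrays and followed Hdc only in part. The Gapdh 3′ to 5′ signal ratio, which rises as RNA is degraded, was 1.21 to 2.15 on the late CR arrays against 1.76 to 2.02 on the fed 0 h arrays. Within late CR it was 1.95 and 2.15 at 48 h, the late time with the highest Hdc. At 12 h it was 1.11 to 1.66, and fed 12 h array b, the higher of the pair in Hdc, had the 1.66. The same ratio for actin was 1.63 to 3.81 on the late CR arrays, with the 2 values of 48 h at 2.69 and 3.81, against 1.87 to 2.31 in fed 0 h, and it was 1.47 to 2.37 at 12 h. At 2 and 4 h of both diets, with Hdc at 1546 to 2387, the Gapdh ratio was 1.01 to 1.56. The actin ratio there was 1.24 to 2.37. The part of RNA quality in these levels was not tested.

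The arrays also fell into 2 sets by their top signal, with 12 arrays above 60000 (CR 2, 12, 24 and 48 h, fed 12 h, and numbers 1a and 1b of fed 0 h) and 12 below it. Hdc kept its order within each set. Among the high arrays it was 952 to 1244 at 12 h, 2033 to 2312 at CR 24 and 48 h, and 2654 and 3019 in fed 0 h. Among the low arrays it was 1945 to 2210 at CR 72 and 96 h and 2948 and 3133 in fed 0 h. The late difference was -0.38 within the high arrays and -0.59 within the low ones, a comparison added after the data were seen. All 12 h arrays were high ones, so the 12 h values have no counterpart among the low arrays.

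Arrays of 1 group lay close together for Hdc. Its pooled within-group SD of 0.13 compares with a median of 0.30 over the 7440 probe sets, and 2.42% had a smaller one. Its group means spanned 1.48 log2 units, or 2.79-fold, and 13.0% of probe sets spanned more.

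The other genes of histamine handling were tested with limma, and a call means a p under 0.05 after Benjamini-Hochberg adjustment over the 7440. Of 12 genes listed, 6 had a probe set and 4, Hdc among them, passed the filter. Of the other 3, Aoc1 fell and Aldh2 and Maoa did not pass the test in fed lungs at 12 h against 0 h, a comparison in which 0.901% of probe sets were called lower and 1.02% higher. The median log2 difference of the 3 was 0.09, against -0.04 over all probe sets.

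Aoc1, diamine oxidase, breaks histamine down outside cells. Its signal was 507 and 536 in fed 12 h lungs and 959, 811, 1548 and 1225 in fed 0 h lungs, 2.11-fold lower at 12 h (95% confidence interval 1.57 to 2.85, limma adjusted p = 0.0111). Without fed 12 h array a or b the call was lost, as it was in a fit of these 2 groups alone; over its 17 alternatives the adjusted p ran from 9.93e-05 to 0.654. In CR lungs Aoc1 was 659 and 539 at 12 h and 832 and 1012 at 24 h, a log2 difference of -0.62 that did not pass (limma adjusted p = 0.389). CR 12 h against fed 12 h gave a log2 difference of 0.19 (limma adjusted p = 0.999). Like Hdc, Aoc1 was at its lowest on the 4 arrays of 12 h, from 507 to 659 against 708 or more elsewhere.

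**Figure D3:**
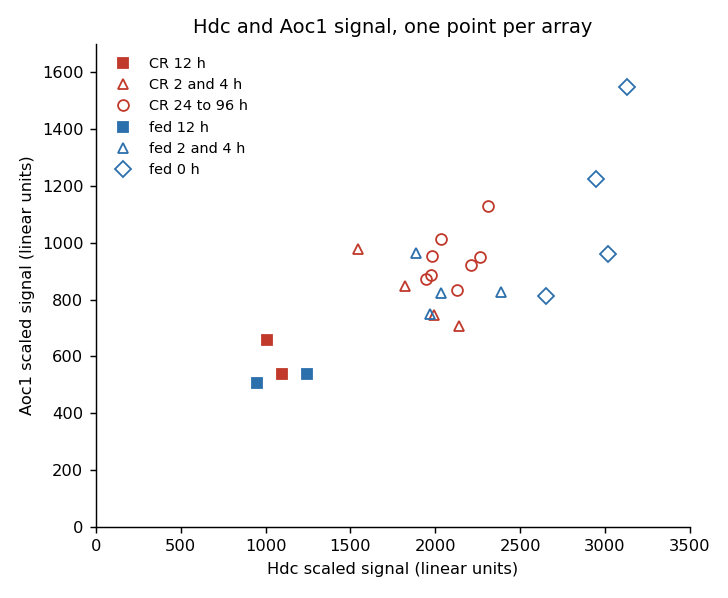
Aoc1 scaled signal (vertical axis) against Hdc scaled signal (horizontal axis), both in linear units, with 1 point per array; red is CR, blue is fed, and the symbol gives the hours. The 4 arrays at 12 h lie at the lower left, at 507 to 659 for Aoc1 and 952 to 1244 for Hdc, and the fed 0 h arrays lie farthest right.

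In late CR against fed 0 h, where 9.85% of probe sets were called higher and 8.24% lower, Aoc1 was not called (log2 difference -0.23, limma adjusted p = 0.278). The Aoc1 difference turned to 0.09 against fed 0 h number 1 alone and to 0.14 within the high arrays, and Aoc1 was called lower against number 2 alone (-0.55, limma adjusted p = 0.0191) and within the low arrays (-0.60, 0.0144), over a range of 0.0144 to 0.751 in all its alternatives. The Hdc difference was negative in all 4 of these comparisons. Aldh2, a mitochondrial aldehyde dehydrogenase that acts after amine oxidases, was 8318 to 12742 on the late CR arrays against 6127 to 7929 on the fed 0 h arrays and rose 1.50-fold (95% confidence interval 1.28 to 1.76, limma adjusted p = 0.00187). Within the low arrays alone it was not called. Maoa, monoamine oxidase A, was not called (log2 difference -0.47, limma adjusted p = 0.0621).

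The receptors of histamine gave little signal. Hrh1 ran from 33.3 to 257 with 10 of 24 arrays at or under the floor, and Hrh2 from 41.8 to 332 with 3, and neither passed the filter. Slc22a2, an organic cation transporter, and Hal, histidine ammonia-lyase, which draws on the same substrate as histidine decarboxylase, did not pass it either. The annotation used gave no probe set for Hnmt, Maob, Slc18a1, Slc18a2, Slc22a3, Slc29a4, Hrh3 or Hrh4.

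Hdc was also set beside the other decarboxylases that use pyridoxal phosphate, of which 5 of 6 had a probe set and 3 passed the filter. Odc1, which makes putrescine from ornithine, was 427 and 502 in fed 12 h lungs against 673 to 783 in fed 0 h lungs and was called lower (log2 difference -0.68, limma adjusted p = 0.0425). That call was lost in 7 of 17 alternatives. Ddc, aromatic L-amino acid decarboxylase, was not called there but was lower in late CR lungs than in fed 0 h lungs (log2 difference -0.60, limma adjusted p = 0.0419), a call lost in 12 of 25 alternatives. Csad passed in no comparison.

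Mast cell genes were examined because mast cells are a main store of histamine. Of 17 markers 12 had a probe set, and Tpsb2, Kit and Gata2 passed the filter. Several markers were at or under the floor on most arrays. Cpa3, mast cell carboxypeptidase, was so on 20 of 24 arrays and Mcpt4 on 23. Fcer1a, the IgE receptor alpha chain, was so on 21 and Ms4a2, its beta chain, on 16. Tpsb2 was above the floor on all 24 arrays, from 217 to 540 by 1 probe set and from 135 to 643 by the other. The chymase gene Cma1 was measured by 1 of its 3 probe sets, from 118 to 424, with 122 to 302 at 12 h against 132 to 424 in fed 0 h. None of the 3 that passed the filter was called in fed lungs at 12 h against 0 h. Nor was any called in CR lungs at 12 h against 24 h, and 0 of 3 had an unadjusted limma p under 0.05 in either. Over all probe sets 0.901% were called lower and 1.02% higher in the first comparison, and 0.242% were called in the second. An absence of calls among 3 genes is near those shares.

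Summed over the 10 mast cell markers other than Kit and Gata2, the signal was 905 to 1072 at 12 h against 749 to 1440 in fed 0 h, and it was 603 to 1026 in late CR lungs. The ranges of 12 h and fed 0 h overlap, as do those of late CR and fed 0 h, and the part of mast cells in the Hdc levels was not tested. Over all 12 markers the sum was 5003 to 7590 at 12 h and 5668 to 8420 in late CR lungs. It was 4113 to 5705 in fed 0 h and 4231 to 6375 at 2 and 4 h of both diets. Most of this sum was Gata2 and Kit, with medians over the 24 arrays of 3049 and 2023. Gata2, a transcription factor of mast cells and endothelium, was called higher in late CR lungs (log2 difference 0.78, limma adjusted p = 0.00248), a call lost against fed 0 h number 2 alone and within the low arrays.

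**Figure D4:**
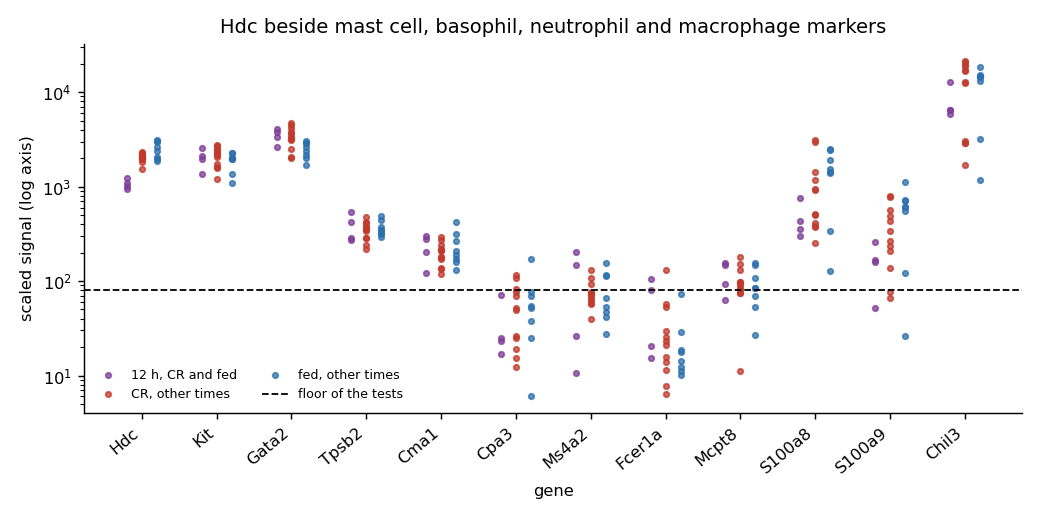
Scaled signal (log axis) of Hdc and of markers of mast cells (Kit to Fcer1a), basophils (Mcpt8), neutrophils (S100a8, S100a9) and macrophages (Chil3) on each of 24 arrays; purple is 12 h of both diets, red is CR and blue is fed at other times, and the dashed line is the floor of the tests. For Hdc the 12 h points lie below all others, while Cpa3 and Fcer1a lie mostly under the line.

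Other cells that can make or carry Hdc gave overlapping sums at 12 h and fed 0 h. The sums were 7060 to 7997 at 12 h against 5203 to 9998 in fed 0 h for 17 neutrophil markers, 28964 to 41768 against 22300 to 50753 for 9 macrophage markers, and 462 to 727 against 466 to 724 for 3 basophil markers. These sums lean on their brightest genes, with medians of 19121 for Lyz2 among macrophage, 2553 for Lcn2 among neutrophil and 335 for Il3ra among basophil markers. The macrophage gene Chil3 differed within fed 0 h, at 14694 and 14537 on number 1 against 1175 and 3181 on number 2. Mcpt8, a basophil protease, was at or under the floor on 7 of 24 arrays by 1 probe set and 19 by the other. Cytokines that act on mast cells or induce Hdc were mostly dim, with 5 of 12 past the filter. Csf3, the granulocyte colony-stimulating factor gene, was called lower in late CR lungs than in fed 0 h lungs (log2 difference -1.60, limma adjusted p = 0.00277). That call (background 8.24%) was lost in 1 of 25 alternatives. None of the 5 was called in fed lungs at 12 h against 0 h, and 1 had an unadjusted limma p under 0.05. With 0.901% of probe sets called lower and 1.02% higher there, an absence of calls among 5 genes is near the background. Heart muscle genes, a possible sign of adjoining tissue in the sample, shared with Hdc the high values of fed 0 h but not the low of 12 h. Sums over 7 genes were 25836 to 32980 in fed 0 h and 20720 to 22132 at 12 h. They were 12677 to 25154 in late CR lungs and 15604 to 20898 at 2 and 4 h of both diets. Of these 7, Myl4 and Myl7 were called lower in fed lungs at 12 h against 0 h (background 0.901%), calls lost in 3 and 8 of 17 alternatives, and 4 of 7 were called lower in late CR lungs (background 8.24%). Their part in the Hdc levels was not tested.

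Clock genes gave a reading of the labelled hour beside Hdc. In fed lungs at 12 h against 0 h, 5 of 16 were called higher and 1 lower (background 1.02% and 0.901%), with a median log2 difference of 0.42 against -0.04 over all probe sets. Per2, a repressor of the clock, was 497 and 475 at fed 12 h against 58.4 to 163 at fed 0 h (limma adjusted p = 0.00347). Arntl, its activator, was 343 and 268 against 544 to 668 (limma adjusted p = 0.019). Both calls were lost without fed 12 h array a and in a fit of these groups alone, and that of Arntl also without array b. The Hdc difference was -1.24 without array a.

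Under CR the 12 h arrays differed from those of 24 h in the same direction. Arntl was 239 and 299 at CR 12 h against 861 and 863 at CR 24 h (limma adjusted p = 0.00245), and Nr1d2, a clock repressor, was 968 and 959 against 279 and 301 (limma adjusted p = 0.00705). These calls were lost in 2 and 3 of 13 alternatives, leaving out CR 12 h array a among them in both cases. In that comparison 0.242% of probe sets were called. Between the diets at 12 h, 0 of 16 clock genes were called by limma and 1 had an unadjusted p under 0.05, where 0.148% of probe sets were called. Hdc was likewise low at the hour labelled 12 in both diets, with a diet difference of -0.05. In late CR lungs against fed 0 h, labelled whole days apart, 4 of 16 clock genes were called higher (background 9.85%). The 1 of 16 called lower is near the background of 8.24%. Arntl was 779 to 1216 in late CR lungs against 544 to 668 in fed 0 h lungs and was called higher, and Dbp, a clock output factor, was 12.9 to 82.7 against 109 to 199 and was called lower. The Arntl call was lost in 4 of 25 alternatives and that of Dbp in 2. Dbp was at or under the floor on 7 of 24 arrays, all of them late CR ones. The size of its log2 difference thus depends on the floor. Whether clock phase had a part in the late Hdc difference was not tested.

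Genes that glucocorticoid hormones induce were also followed beside Hdc. At 12 h, 4 of 19 were called higher in CR than in fed lungs, where 0.108% of probe sets were called higher. Fkbp5, which binds the glucocorticoid receptor's chaperone complex, was 4178 and 4382 in CR 12 h lungs against 1538 and 1522 in fed 12 h lungs (limma adjusted p = 0.0329). In a fit of these groups alone none of the 4 was called, and without fed 12 h array b all 4 calls were lost. Those of Fkbp5, Ddit4 and Mt2 were lost without any 1 of the 4 arrays. The Hdc values overlapped between the same arrays. In late CR lungs against fed 0 h 19 of 19 were called higher (background 9.85%), with a median log2 difference of 1.23, while Hdc was lower by 0.48. The list was chosen with its rise on these arrays known.

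Genes whose group means ran most like those of Hdc were ranked over the 11 groups, among 2302 probe sets that spanned at least 1 log2 unit. The correlations describe 11 means drawn from the same 24 arrays and share their scaling. Rdh13, a retinol dehydrogenase family member (r = 0.93), Eif4e, the cap-binding translation factor (0.93), Casp4, an inflammatory caspase (0.88), and Aoc1 (0.88) led, followed by Ldhb (0.86), Plk1 (0.84), Zranb2 (0.84) and Pafah2 (0.84). Over the 24 arrays the correlation with Hdc was 0.59 for Rdh13, 0.81 for Eif4e, 0.74 for Casp4 and 0.79 for Aoc1. Eif4e was dim and fell under the floor on CR 12 h array a (54.3) and fed 12 h array a (22.0). Casp4 fell under it on fed 12 h array a (47.4) and was 293 on array b. By group means the most opposite were Gtf2i (-0.94), Plxnb2 (-0.93), Cyth3 (-0.89) and Slc9a3r2 (-0.89). Cyth3 was 41.2, 124, 16.4 and 28.3 in fed 0 h, mostly under the floor, so its differences from fed 0 h depend on that floor. Likeness to Hdc was rare, with 2 probe sets at 0.9 or more and 19 at 0.8 or more.

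Of the 8 genes most like Hdc, Aoc1 and Ldhb, a lactate dehydrogenase subunit, were called lower in fed lungs at 12 h (background 0.901%). The Ldhb call, at a limma adjusted p of 0.0496, was lost in 9 of 17 alternatives. Rdh13 had the largest log2 difference of the 8, -1.56, with a standard error of 0.72 and a limma adjusted p of 0.27. All 4 opposite genes were called higher (background 1.02%), and each of these calls was lost without fed 12 h array a. Gtf2i, a general transcription factor, was 1340 and 877 at fed 12 h against 529 to 715 at fed 0 h, and 1358 and 1138 at CR 12 h against 893 and 716 at CR 24 h. Plxnb2, a semaphorin receptor, was 833 and 555 at fed 12 h against 203 to 347 at fed 0 h. These genes share with Hdc the comparison they were ranked on, so their calls add no support to its pattern.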

How the data were processed

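The deposited values are linear intensities, 1 per probe set and array. The authors had already scaled them: tested on the values, the mean after trimming 2% at each end was 799.8 on every array. Which program made them is not stated in the labels. Gene symbols come from the platform's annotation: of 12488 probe sets 66 were array controls, and of the rest 10833 had 1 symbol, 396 several and 1193 none. Here the arrays were brought to 1 median (factors 0.920 to 1.05), values under the 25th percentile (80.4) were raised to it, and log2 was taken. Probe sets at or above the array median on at least 2 arrays were kept (7440). Group means (11 groups, 24 arrays, 13 residual degrees of freedom) were fitted by lmFit and eBayes (with trend) of limma 3.58.1, run in R 4.3.3, with two-sided tests. The steps were tested on simulated data. Genes with several probe sets count by the brightest one kept. The number of arrays limits the precision.

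Members, gene lists and tests were chosen with earlier results of these data known. Named genes were Hdc, all measured histamine genes, the 8 most like and 4 most opposite by correlation, defining markers, and up to 4 list members per comparison by smallest p. Alternatives varied normalization, floor, filter, trend, the arrays or groups fitted, and blocks for array letter and signal range. Letters a and b do not pair arrays across groups. A further array, of another platform, has a title and a description that disagree and entered no comparison; its intensities came from MAS5, per the submitters' processing notes.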

Additional observations from a re-analysis of the deposited data

How the results depend on the processing

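In the comparisons below, Hdc differences kept their direction under every change of normalization, floor, fed 0 h number, signal range and array left out. The exception was CR 12 h minus fed 12 h. That one ran from -0.24 to 0.15 as single arrays were left out; fed 12 h minus fed 0 h ran from -1.62 to -1.24. Counts of called probe sets moved far more. Fed 12 h minus fed 0 h (143) gave 2304 with signal range as a block or against fed 0 h number 1 alone, 649 against number 2, and 0 with only these groups fitted (527 at an unadjusted limma p under 0.05). It gave 18 to 337 with an array left out (18 without fed 12 h 1a; 318 and 337 without fed 0 h 2a and 2b). CR 12 h minus fed 12 h (11) gave 7 with the replicate block, 36 with the range block or no filter, 6 with no trend, 0 with only these groups (446 unadjusted), and 1 to 12 with an array left out (4 or 6 when 1a or 1b of CR 12 h was dropped, and 1 for fed 12 h 1b). CR 12 h minus CR 24 h (18) gave 102 with the range block, 55 with no filter, 1 with only these groups, and 6 to 20 with an array left out (6 without CR 12 h 1a, 7 without CR 24 h 1a). The early mean (2) gave 1 with the replicate block, 452 with the range block, 10 with no filter, 0 with no trend (259 unadjusted), 1 with only these groups, and 0 to 3 with an array left out (under 2 for each array but fed 2 h 1a and fed 12 h 1a). The late mean (1346) gave 2543 with the range block, 347 with only these groups, 3679 and 577 against numbers 1 and 2, 3423 and 793 within the high and low range, and 542 to 2248 with an array left out (857 when CR 96 h 1b was dropped, and 595, 542, 2248 and 2155 when 1a, 1b, 2a and 2b of fed 0 h were). With an array left out, the early mean of Aoc1 ran from -0.012 to 0.085, below 0 when CR 12 h 1a or fed 4 h 1a (-0.00064) was left out. Aoc1 also turned sign in the late mean against number 1 (0.093, limma adjusted p = 0.617) and within the high range (0.14, 0.476); over its alternatives those adjusted p ran from 0.206 to 1 and from 0.0144 to 0.751. Between groups, the letter deviations correlated at -0.19 to 0.118 over 45 pairs, so the letters do not pair arrays. The causes were not tested. Fewer arrays in a fit leave fewer degrees of freedom.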

Other observations

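The array of the other platform, which entered no comparison, had 2 Hdc probe sets among 45101. Their signals were 16.8 and 120, where the median of all probe sets on that array was 96.1. The same array gave 155 for Aoc1, 309 for Hnmt, 362 for Hrh2, and 240 for Cpa3, with 18.5 and 12.4 for the 2 probe sets of Hrh1. Its values are on another scale than those of the 24 arrays, so no level was compared with theirs.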
